A study of Gallus gallus with 9 samples.

Results

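A set of 212 protein-coding genes in chicken liver had its lowest level at 5 weeks of age, below both the embryo and the adult bird. The genes were found among the 13949 listed in the deposited mRNA table. Expression was given as FPKM, the fragments counted per kilobase of transcript and scaled to the library, on a log2(FPKM + 1) scale. A gene was eligible with at least 1 FPKM in at least 3 of the 9 libraries, which 11512 genes reached. It became a member when its mean log2 value at 5 weeks lay at least 1 below that at embryonic day 13 and at least 1 below that at 42 weeks. The members were chosen by these values, so the fall and the later rise of each are given as a description, with no test.

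The study profiled chicken liver at 3 ages, embryonic day 13, 5 weeks and 42 weeks, which the labels call embryonic, rapid growth, and adult and aged. Each age had 3 libraries of total RNA, labelled as biological replicates. The labels name no treatment, genotype, breed or sex. They also do not say whether each library came from a separate bird, so p-values measure the spread between libraries. Every age is a separate set of samples, and any difference in handling between ages cannot be told apart from age.

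The liver makes most plasma proteins, stores and releases carbohydrate and lipid, and clears foreign compounds. In birds it is also the main site of fatty acid synthesis. The chick embryo lives on yolk lipid and turns to a feed rich in carbohydrate after hatching, and in laying hens the liver is the source of the lipoproteins and vitellogenins of the egg yolk. In the embryo the liver also holds dividing hepatocytes and vascular and blood cells in other proportions than later. In bulk tissue such as this, fewer cells of a type and less RNA per cell cannot be told apart.

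The genes carry Ensembl identifiers that neither the files nor the reference table pair with a name, and 0 of the 13949 could be matched. The liver label was therefore not checked against liver markers, no gene function is given, and no sequence is printed. By the rule for naming genes 4 identifiers are printed, and other members are described by their values.

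The libraries of an age were alike over all genes tested except at 42 weeks, where library 3 lay at least 1 log2 unit from the mean of the other 2 for 9.63% of genes, against 4.54% for library 1 and 2.21% for library 2. The main 42-week results are given with and without that library. The median gene tested was 0.46 lower on the log2 scale at 5 weeks than at day 13, and 0.17 lower at 42 weeks than at 5 weeks. Membership depends on this shift. After all libraries were brought to the same median 157 genes met the rule and 129 of them were among the 212, which is 82.2% of the 157 and 60.8% of the 212. Quantile normalization gave 184, of which 137 were shared, or 74.5% of the 184 and 64.6% of the 212. All 3 scalings held 129 genes in common.

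The members stood above the typical gene in the embryo and the adult and below it at 5 weeks. Their median was 15.9, 14.0 and 13.6 FPKM in the 3 embryonic libraries, 3.06, 3.43 and 3.20 FPKM in the 3 libraries at 5 weeks, and 10.5, 12.4 and 10.8 FPKM in the 3 libraries at 42 weeks. The medians of the embryonic and adult libraries all exceeded those at 5 weeks by a wide margin, as the rule requires. Over all genes tested the median was 7.97 to 8.82 FPKM at day 13, 5.39 to 6.33 FPKM at 5 weeks and 4.30 to 6.25 FPKM at 42 weeks.

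**Figure D1:**
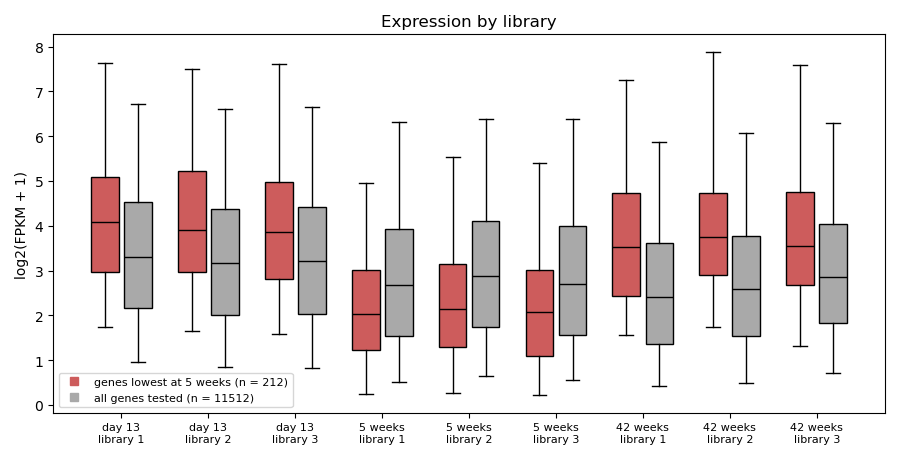
Box plots of log2(FPKM + 1) in each of the 9 libraries for the 212 genes lowest at 5 weeks (red) and for all 11512 genes tested (grey). Boxes span the quartiles with the median as a line, and whiskers run over percentiles 5 to 95. The red boxes lie above the grey ones at day 13 and 42 weeks and below them at 5 weeks.

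As a group the members were a small part of the transcriptome at every age. The members' share of the summed FPKM was 3.25% ± 0.10 in the embryo, 0.526% ± 0.007 at 5 weeks, and 2.77% ± 0.35 in the adult (SD, n = 3 each). The low share at 5 weeks follows from the rule. A single gene made up much of the embryonic share, and without it the shares were 1.95% ± 0.15, 0.465% ± 0.016 and 2.44% ± 0.39. With the third 42-week library left out, the adult share of all members was 2.97%. At the top of the range, 20 members had a mean of at least 100 FPKM at day 13, 5 had it at 5 weeks and 16 at 42 weeks. At the bottom, 45 members had a mean under 1 FPKM at 5 weeks. The count at day 13 and at 42 weeks was 0, which the rule fixes, since it requires a log2 mean of at least 1 there. In 3 members all 3 libraries at 5 weeks were listed at 0, which in this table stands for a value under 0.1 FPKM. No ratio against 5 weeks is given for these 3.

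On the deposited scale most dips were shallow and a few were deep. The fall had a median of 1.67 log2 units (interquartile range 1.296 to 2.255, up to 5.91) and the rise a median of 1.40 (1.16 to 1.77, up to 9.29). In FPKM, the 209 members above 0 at 5 weeks had a median ratio of 4.35 for day 13 over 5 weeks and of 3.35 for 42 weeks over 5 weeks. The log2 steps depend on the 1 added to FPKM. With 0.1 added instead, members with a mean under 3 FPKM over the 9 libraries had a median fall of 2.68, against 1.38. Their median rise was 2.58, against 1.26. At a mean of 100 FPKM or more the median fall was 2.01 either way. Ranked by the smaller of the 2 steps, 162 members lay under 1.5 log2 units, 36 between 1.5 and 2, 10 between 2 and 3, and 4 at 3 or more. The member nearest the threshold had a fall of 1.0013 and a rise of 1.54, with means of 107, 52.9 and 160.3 FPKM at the 3 ages. The nearest gene outside it had a fall of 1.22 and a rise of 0.9999, with means of 4.64, 1.42 and 4.61 FPKM.

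**Figure D2:**
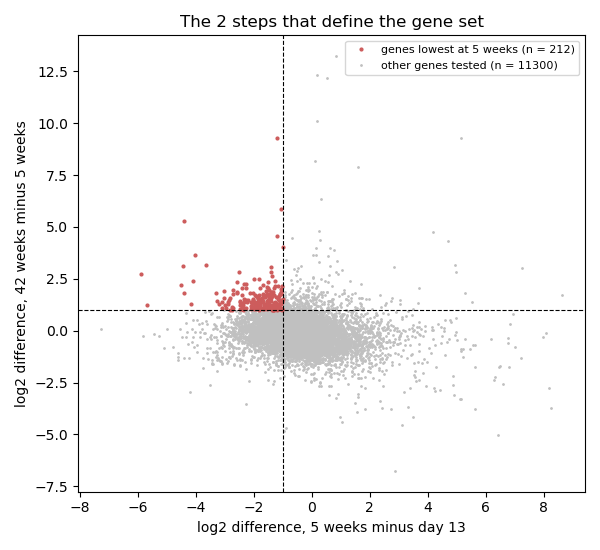
Each point is 1 gene, with the log2 difference of 5 weeks minus day 13 on the x axis and of 42 weeks minus 5 weeks on the y axis. The 212 members (red) fill the corner beyond the dashed lines at -1 and 1, most of them close to the lines and a few far out along either axis.

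Within the set, 200 members had all 3 libraries at 5 weeks below the 6 other libraries, against 9.86% of all genes tested. The other 12 overlapped in at least 1 library. The test across all genes called 204 members both lower at 5 weeks than at day 13 and higher at 42 weeks than at 5 weeks (limma, adjusted p under 0.05 and a log2 difference of at least 1). These same 204 are the 1.77% of all genes tested that met both calls, since any such gene meets the rule. As the rule used these 2 steps, neither number is evidence for the dip.

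Genes of every abundance were members, and on the deposited scale the share was lowest among the rare ones. By mean FPKM over the 9 libraries, 26 of 3070 genes under 3 FPKM were members (0.847%), 78 of 3905 from 3 to 10 FPKM (2.00%), 93 of 4033 from 10 to 100 FPKM (2.31%) and 15 of 504 at 100 FPKM or more (2.98%). This order depends on the offset, since log2(FPKM + 1) compresses low values. With an offset of 0.1 FPKM in place of 1 the rule was met by 527 genes, and of those added 205 were under 3 FPKM, 87 from 3 to 10, 23 from 10 to 100 and 0 at 100 or more.

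The deepest dip belonged to ENSGALG00000036956. It had 188, 249 and 356 FPKM in the embryonic libraries, 10.7, 9.91 and 12.6 FPKM at 5 weeks, and 308, 532 and 651 FPKM at 42 weeks. All 3 libraries at 5 weeks lay far below the other 6, while the 42-week and embryonic ranges overlapped. On the log2 scale its fall was 4.41 and its rise 5.30. The difference between 42 weeks and day 13 was 0.89 ± 0.29 (SE; adjusted p = 0.020, limma), short of the log2 difference of 1 needed for a call. Without the third 42-week library it was 0.66 (adjusted p = 0.057), and without the first 1.20 (adjusted p = 0.0026).

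ENSGALG00000037805 had the next deepest dip by the same ranking. Its values were 293, 304 and 239 FPKM at day 13, 16.7, 18.8 and 12.7 FPKM at 5 weeks and 151, 243 and 259 FPKM at 42 weeks. The adult libraries overlapped the embryonic ones, and the first 42-week library was the lowest of these 6. The log2 difference of 42 weeks against day 13 was -0.39 ± 0.23 (SE; adjusted p = 0.16, limma), and its sign turned after median scaling. Without the first 42-week library it was -0.14 (adjusted p = 0.56), and without the third -0.53 (adjusted p = 0.059).

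**Figure D3:**
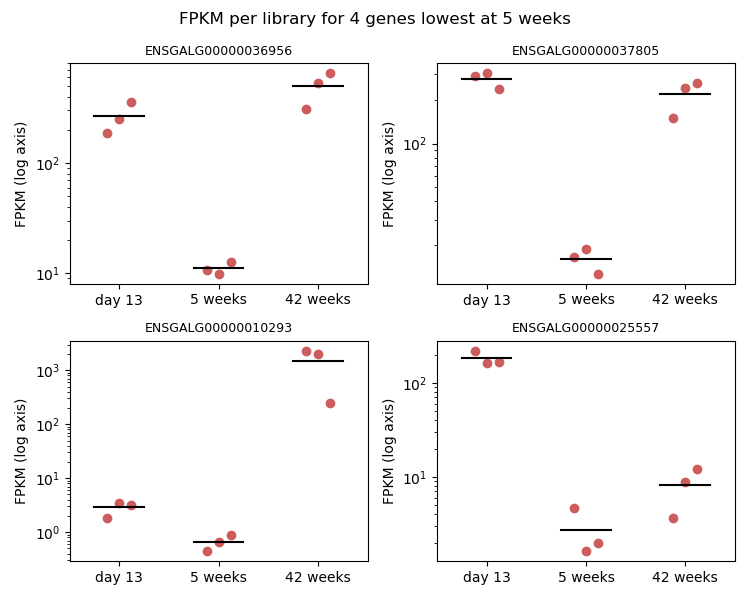
FPKM per library on a log axis for 4 members, with points for the 3 libraries of each age and a bar for their mean. The 2 upper genes have the deepest dips by the smaller of the 2 steps. At lower left ENSGALG00000010293 reached 244 to 2289 FPKM at 42 weeks, and at lower right ENSGALG00000025557 remained at 3.66 to 12.1 FPKM at 42 weeks against 161 to 219 FPKM at day 13.

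The rule leaves unset how the adult level compares with the embryonic one. No bound is placed on that difference, and it was tested for each gene in the fit across all 11512 genes. It is still the rise less the fall, both of which the rule bounds, in the same libraries. Shares and medians of members set beside those of all genes tested are therefore not free of the choice. They are given as a description. At 42 weeks 7 members were called higher than at day 13, where 6.86% of all genes tested were, and 35 were called lower, where 30.9% of all genes tested were. These are 3.30% and 16.5% of the 212. The other 170 members were not called, which does not show that their levels were equal, and the median SE of a member's difference was 0.23. The median difference was -0.24 log2 units over the members (interquartile range -0.76 to 0.17) and -0.61 over all genes tested. The adult and embryonic means lay within 0.5 log2 units of each other in 108 members (50.9%, against 32.5% of all genes tested), and within 1 in 166 (78.3%, against 61.8%). Without the third 42-week library the median was -0.26 over the members and -0.73 over all genes tested, and the members within these bounds numbered 100 and 152.

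Direction at the end points followed the scaling of the libraries. On the deposited scale 76 members lay above 0 and 136 below, while after median scaling 139 lay above and 73 below, with a median of 0.33 for members and -0.04 for all genes. After quantile normalization the counts were 143 and 69, with medians of 0.34 and -0.07. The calls to members turned likewise, with 29 higher and 17 lower under the first of these scalings and 34 and 16 under the second. Over all genes tested 13.2% were called higher and 13.2% lower under the first, and 12.4% and 14% under the second. Calls of a higher level thus made up 16.7% of all calls to members in the deposited values, 63.0% with equal medians and 68.0% with equal quantiles. Over all genes tested the same share was 18.2%, 49.95% and 46.9%. The calls of all genes thus shifted with the scaling too, but those of a lower level stayed the more numerous. The median of the members exceeded that of all genes by 0.37, 0.37 and 0.41 log2 units under the 3 scalings. Median scaling moves the difference of every gene by the same amount, so the second value had to equal the first. Calls shared by the 3 scalings numbered 7 higher and 16 lower. Without the third 42-week library 15 members were called higher and 42 lower, where 6.08% and 36.8% of all genes tested were.

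**Figure D4:**
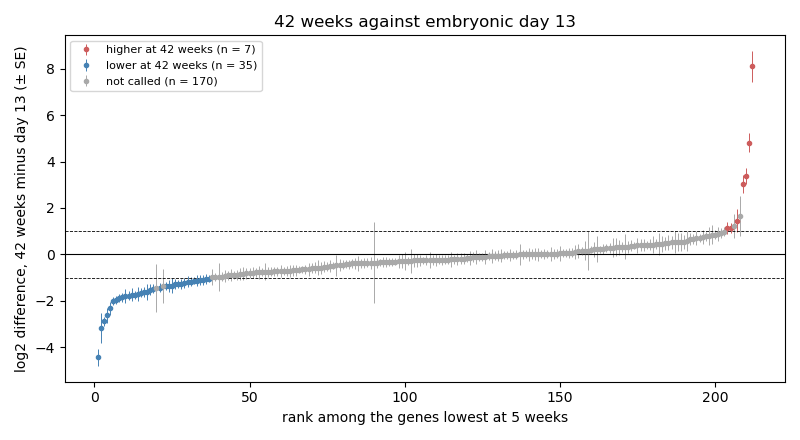
The log2 difference of 42 weeks minus day 13 for each of the 212 members, in rank order, with SEs as bars. The 7 called higher (red) reach 8.09, the 35 called lower (blue) reach -4.42, and the 170 not called (grey) run through 0. Dashed lines mark -1 and 1.

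The 7 members called higher had risen past their embryonic level by very different amounts. ENSGALG00000010293 had 2289, 1976 and 244 FPKM at 42 weeks, against 1.87, 3.55 and 3.19 FPKM at day 13, with 0.444, 0.645 and 0.901 FPKM at 5 weeks. Every 42-week library lay far above every other library, and the third was the lowest of the 3. Its log2 difference from day 13 was 8.09 ± 0.66 (SE; adjusted p = 2.8e-06, limma) and 9.13 without that library. This gene's fall to 5 weeks was small by comparison, 1.20 log2 units, and that step was not called.

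Of the other 6 called higher, 3 also exceeded the embryo by more than 3 log2 units. They averaged 78.0 ± 43.3 FPKM at 42 weeks and 1.44 ± 0.23 FPKM at day 13, 56.1 ± 14.4 and 4.46 ± 0.54 FPKM, and 280.9 ± 31.0 and 36.0 ± 16.9 FPKM (SD, n = 3 each). Their log2 differences were 4.81, 3.36 and 3.02, and without the third 42-week library 5.40, 3.45 and 2.95. The remaining 3 had log2 differences of 1.13 to 1.44, and the one at 1.44 lost its call without that library (1.14, adjusted p = 0.073, limma). In 6 of the 7 all 42-week libraries lay above all embryonic ones.

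On the deposited scale, the 35 members called lower had regained only part of their embryonic level. Under all 3 scalings 16 of them were called lower. The medians of the 35 as deposited were 31.5 FPKM at day 13, 4.30 FPKM at 5 weeks and 11.7 FPKM at 42 weeks, and in all 35 every 42-week library lay below every embryonic one. The largest deficit was that of ENSGALG00000025557, with 3.66, 8.90 and 12.1 FPKM at 42 weeks, against 219, 161 and 168 FPKM at day 13, and 4.63, 1.62 and 1.99 FPKM at 5 weeks. Its 42-week and 5-week libraries overlapped, so the rise that made it a member was small beside its fall. The log2 difference of 42 weeks against day 13 was -4.42 ± 0.38 (SE; adjusted p = 3.5e-06, limma) and -4.74 without the third 42-week library.

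The most abundant member was among those called lower, and was singled out after its values were seen. It had 7679, 6442 and 7119.8 FPKM at day 13, 299, 210.3 and 461 FPKM at 5 weeks and 1293, 1217 and 1772 FPKM at 42 weeks. The 3 ages did not overlap, with the adult level between the other 2. Its log2 difference of 42 weeks against day 13 was -2.33 ± 0.30 (SE; adjusted p = 5.8e-05, limma) and -2.49 without the third 42-week library. It is the gene that made up much of the embryonic share of the set.

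Called or not, the 42-week libraries all lay above the embryonic ones in 16 members and all below in 73, and overlapped in 123. Over all genes tested these separations were met by 11.9% and 57.2%. The 170 members not called had a median of 12.2 FPKM at day 13, 3.24 FPKM at 5 weeks and 12.7 FPKM at 42 weeks. Across the 212 members the mean log2 levels at 42 weeks and day 13 had a Pearson's r of 0.82 and a Spearman's rho of 0.79, compared with 0.77 and 0.76 across all genes tested. For the members Pearson's r was higher between day 13 and 5 weeks, at 0.90, and between 5 weeks and 42 weeks, at 0.88. Across all genes tested those values were 0.82 and 0.91. These correlations are across genes, which are not independent replicates and share the same libraries. The rule also ties both end points of a member to its 5-week level. Expressed as a share of the fall, the rise had a median of 85.3% (interquartile range 63.1 to 112.0%), and it was the smaller of the 2 steps in 136 members and the larger in 76. These values are on the deposited scale. After median scaling the rise was the smaller step in 73 members and the larger in 139. Quantile normalization gave 69 and 143.

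**Figure D5:**
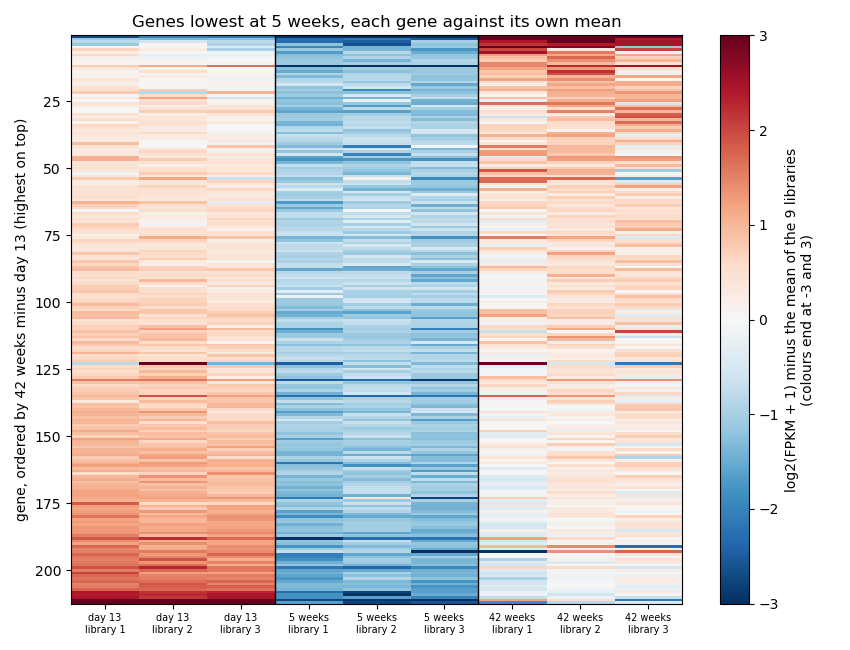
Heat map of the 212 members (rows, ordered by the log2 difference of 42 weeks minus day 13) in the 9 libraries (columns), coloured by log2(FPKM + 1) minus the gene's mean over the 9 libraries. The 5-week columns are blue in most rows, the upper rows are reddest at 42 weeks, the lower rows are reddest at day 13, and scattered rows differ between the 42-week libraries.

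Members varied more between libraries at 42 weeks than at the other ages, as did all genes tested. Between libraries of the same age the SD of a member had a median, in log2 units, of 0.17 in the embryo, 0.23 at 5 weeks and 0.37 in the adult, compared with 0.15, 0.19 and 0.29 over all genes tested. From the first and second 42-week libraries alone it was 0.32 for members and 0.16 for all genes tested. At 42 weeks the SD of members exceeded that of all genes in each level class, with 0.44 against 0.27 under 3 FPKM, 0.36 against 0.29 from 3 to 10, 0.37 against 0.30 from 10 to 100 and 0.47 against 0.38 at 100 or more. Members were chosen by means from these same libraries, so the comparison with all genes is not free of the choice. These are descriptions of the medians and were not tested.

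Where the third 42-week library stood apart in members by at least 1 log2 unit, it was mostly the low one. It lay at least 1 log2 unit below both other libraries in 20 members (9.43%) and above both in 5 (2.36%). Over all genes tested it was that far below in 1.26% and that far above in 4.66%. The first 42-week library was that far below both others in 6 members (2.83%, and 1.11% of all genes). At any distance, the third was the highest of the 3 in 100 members (47.2%, and 71.4% of all genes). It was the lowest in 67 (31.6%, and 11.9%). The first was the lowest in 117 members (55.2%, and 64.1% of all genes). The 42-week libraries helped to choose the members, so these shares are not free of the choice. For 1 member, singled out after its values were seen, the dip rested on 2 libraries. It had 2.13, 179 and 1.10 FPKM at day 13, 0, 2.44 and 1.21 FPKM at 5 weeks and 112, 2.95 and 0.268 FPKM at 42 weeks, so 1 embryonic and 1 adult library were high and the other 7 low.

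The steps were also read with 1 library at a time left out of choosing the genes. Members were chosen again 9 times, each time from 8 libraries, and the library left out was read against the mean of the other ages. Those means did help to choose the genes, so these shares are not free of the choice and are given as a description. The genes chosen are also counted among all genes tested. When an embryonic library was left out, 86.4 to 94.1% of the genes chosen stood at least 1 log2 unit above their 5-week mean in it, as did 21.1 to 25.9% of all genes tested. When a 5-week library was left out, it lay at least 1 below both other ages in 167 of 202 genes for the first library (82.7%), in 140 of 257 for the second (54.5%) and in 156 of 207 for the third (75.4%). Over all genes tested this was met by 1.72 to 2.64%. When a 42-week library was left out, it stood at least 1 above the 5-week mean in 128 of 284 genes for the first (45.1%), 175 of 205 for the second (85.4%) and 141 of 193 for the third (73.1%), and in 3.50 to 7.51% of all genes tested.

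The direction alone is met by every gene that meets the size, so its counts could not be lower. The direction too was read against means that helped to choose the genes, and is given as a description. Left-out 5-week libraries lay below both other ages in 202 of 202, 251 of 257 and 204 of 207 genes, as did 25.6 to 35.4% of all genes tested. Left-out 42-week libraries lay above 5 weeks in 273 of 284, 204 of 205 and 185 of 193 genes, as did 26.6 to 53.6% of all genes tested. The number of genes that met the rule from 8 libraries was lowest without the third 42-week library, at 193, and highest without the first, at 284.

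For comparison, 198 genes met the mirrored rule and were highest at 5 weeks. At 42 weeks 50 of them (25.3%) were called higher than at day 13 and 10 (5.05%) lower. The members had 7 (3.30%) and 35 (16.5%), and all genes tested 6.86% and 30.9%. These are calls on the deposited scale, and those of the members turned to 29 and 17 after median scaling. Under that scaling 13.2% of all genes tested were called higher and 13.2% lower. The median difference of the 198 genes on the deposited scale was 0.38 log2 units, compared with -0.24 for the members and -0.61 for all genes tested. The difference between the sets was not tested, since both were chosen on these libraries.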

How the data were processed

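RNA was measured in 9 chicken liver libraries, 3 at each of 3 ages. The tools named in the submitters' processing notes, without their roles, are DESeq2, Cufflinks 2.2.1, StringTie 1.3.3 and HISAT, and no genome build is named there. The authors deposited log2 values of FPKM. They were read as log2(FPKM + 1), since 0 of 125541 back-transformed values fall between 0 and 0.1 FPKM, with 0.100 the smallest above 0. Genes above 0 in fewer than 5 libraries are not in the table. The table holds no counts, so the depth of each library is unknown and precision rests on the 3 libraries per age. The deposited table of long non-coding RNAs was not used here.

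Genes that reached 1 FPKM in 3 or more libraries were fitted with limma 3.58.1 in R 4.3.3, with 1 mean per age over all 9 libraries and a mean-variance trend. Two-sided p-values were adjusted over all 11512 genes (Benjamini-Hochberg), and a call needed an adjusted p under 0.05 and a log2 difference of at least 1. The members, the gene lists and the tests were chosen with earlier results of these data known. The 29 lists fixed by symbol could not be applied, as no identifier matched a name. The genes named are the 2 with the largest smaller step and those with the largest called rise and fall at 42 weeks against day 13. Alternatives were another offset, 2 scalings, 2 filters, no variance trend, the 2 ages compared alone, a replicate block, the adjusted p alone, a step of 1.5 and leaving out each library.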

Additional observations from a re-analysis of the deposited data

How the results depend on the processing

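The number of members was 527 with an offset of 0.1 FPKM and 50 with both steps at least 1.5, and from 193 to 284 when a library was left out. The members called at both steps fell to 121 after median scaling and 126 after quantile normalization, against 204 as deposited, and leaving out a library gave 165 to 198. At 42 weeks against day 13, the members called higher numbered 29, 34 and 16 and those called lower 17, 16 and 68 after median scaling, quantile normalization and with the adjusted p alone, compared with 7 and 35. Over all genes tested the same 3 settings gave 1514, 1423 and 1273 higher and 1517, 1609 and 6340 lower, compared with 790 and 3562. Leaving out a library gave 6 to 15 members higher, the most without the third 42-week library, and 31 to 43 lower, with 691 to 874 and 3082 to 4183 over all genes. The cause of these changes was not tested. ENSGALG00000037805 turned from -0.39 to 0.18 after median scaling and 0.21 after quantile normalization, with adjusted p-values from 0.059 to 0.56 over its 18 alternatives. ENSGALG00000036956 was called in 5 of 18 alternatives, while ENSGALG00000010293 and ENSGALG00000025557 kept direction and call in all 18. The filters, the fit without a trend and the fit of 2 ages moved no count by more than 1.5 times.

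With the replicate number as a block 8 members were called higher and 35 lower, 205 at both steps, and 801 and 3565 of all genes. Same-numbered libraries of 42 weeks and day 13 had correlations of their deviations from -0.050 to 0.14, and 3 of 6 correlated best with their own number, so the numbers were not taken as pairs. Depth is unknown, and no limit from it can be given.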
